A study of Mus musculus with 12 samples.

Results

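Retromer is the endosomal coat that takes membrane proteins out of the path to the lysosome and returns them to the trans-Golgi network or the cell surface. The genes of its subunits and of the sorting nexins that work with it were followed in mouse B-lymphoma cells. The 9 members are Vps26a, Vps26b, Vps29, Vps35, Snx1, Snx2, Snx3, Snx5 and Snx6, out of 30176 genes measured. A member was the probe set that carried its gene symbol alone, and the probe set with the highest mean over the 12 arrays would have been taken where a gene had several. Each of the 9 had exactly 1 such probe set, and none appeared in a probe set shared with another gene. The set was chosen by the rise of Vps26b in IFNβ-treated 3s cells, which was known beforehand, so that rise and the contrasts that contain it are described without a test.

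The cells were 2 established lymphoma lines from the spleens of C57BL6/CBA mice, 3s and 30s, and both carry Mx1Cre, EµMyc and p53+/-. Mx1Cre is a Cre recombinase that interferon switches on, EµMyc drives the Myc oncogene in B cells, and both loxP-flanked copies of Runx1 (Rx1fl/fl), which encodes a transcription factor of blood cells, can be excised in 3s cells, whereas the Runx1 of 30s cells is wild type (Rx1WT/WT). Cells of each line were given 50 U/ml IFNβ or vehicle (PBS with BSA) for 72 h and then grown for 6 days in fresh medium, with 3 cultures and 3 arrays in each of the 4 groups. The 30s groups thus received the same interferon and Cre induction with no floxed Runx1 to excise. Each line came from 1 mouse lymphoma, so the replicates are cultures of a line and the p-values measure the spread between cultures, and differences between the lines cannot be told apart from differences between the tumours they came from. The paper describes 3s as a p53 null line, although the sample records give p53+/-. The genotype entries in the sample records follow the treatment and not the line, and cell name and treatment therefore set the groups.

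Retromer proper is a trimer of VPS35, VPS29 and either VPS26A or VPS26B, which are products of separate genes. VPS35 is the elongated scaffold, VPS29 binds one end of it and recruits regulators, and VPS26 sits at the other end and takes part in cargo and sorting nexin binding. SNX1 or SNX2 pairs with SNX5 or SNX6 to form the membrane-bending SNX-BAR dimers, and SNX3 binds phosphatidylinositol 3-phosphate on early endosomes and recruits the trimer for cargo such as the Wnt carrier Wntless.

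The values are log2 values from robust multi-array averaging, so that a difference of 1 is a doubling. The deposited arrays were alike in scale, with gene medians between 5.43 and 5.49, and the 23 background control probe sets had array medians between 3.37 and 3.52. Precision is limited by there being 3 arrays in a group, and the SD of a typical gene between them was 0.069 to 0.072 (group medians). Of the B-lineage markers, 7 of 9 measured had a mean above 8 (range of means 6.63 to 14.67), with Pax5 at 10.18 and Cd79b at 14.67, while 0 of 6 T and NK cell markers (4.21 to 5.37) and 0 of 7 myeloid markers (4.25 to 5.46) did. Of 4 erythroid and stromal markers 1 did, Pecam1 at 9.91. The averaged B-lineage markers lay between 11.02 and 11.23 in the 3s arrays and between 11.49 and 11.70 in the 30s arrays, with no value shared by the lines, and Igll1, a surrogate light chain gene of pre-B cells, stood furthest apart between them. It read 4.91 to 5.33 with vehicle and 4.23 to 4.68 with IFNβ in 3s cells (change -0.61, adjusted p = 0.296), and 9.54 to 10.24 with vehicle and 10.49 to 10.90 with IFNβ in 30s cells (change 0.92, adjusted p = 0.0491). Its IFNβ effects in the lines differed by -1.53 (adjusted p = 0.0245), and it was the one B-lineage marker to pass in 30s cells or for that difference. The part of such differences in those of the members was not tested. The Runx1 probe set did not show the excision: it changed by -0.018 (SE 0.099) in 3s and by 0.078 (SE 0.099) in 30s cells after IFNβ, and no source used here gives where its probes lie relative to the excised part. The paper reports that loss of Runx1 in IFNβ-treated floxed lines was established by PCR on genomic DNA. All 9 members were well above the background controls, with means over the 12 arrays from 7.98 (Vps26b) to 15.29 (Snx2), and levels of different probe sets were not set against each other.

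Vps26b and Vps26a are the paralogues on which the results turn, and the promoter windows of both are shown because the genes differ in their response and in what lies beside them. RefSeq (GRCm38.p6) windows run from 250 bases before to 50 after a gene's start, and 7 of the 9 members matched; Vps35 and Snx2 did not. The Vps26b window is on the minus strand at chr9:27030045-27030344, and Ncapd3, a condensin II subunit gene, is read in the opposite direction from a start 71 bases away. The capitals mark the 170 bases of the Vps26b window that also belong to the promoter window of Ncapd3. The Vps26a window is on the minus strand at chr10:62486756-62487055 (the more upstream of 2 windows for this gene), and its capitals mark matches to the motifs CACGTG and GAAANNGAAA.
Vps26b: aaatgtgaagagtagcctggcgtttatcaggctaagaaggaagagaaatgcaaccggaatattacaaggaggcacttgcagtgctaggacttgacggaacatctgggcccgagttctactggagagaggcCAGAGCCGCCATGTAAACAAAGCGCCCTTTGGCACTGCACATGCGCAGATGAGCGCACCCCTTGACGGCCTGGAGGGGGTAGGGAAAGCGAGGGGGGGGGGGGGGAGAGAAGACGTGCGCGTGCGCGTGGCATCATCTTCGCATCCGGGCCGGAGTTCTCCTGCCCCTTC
Vps26a: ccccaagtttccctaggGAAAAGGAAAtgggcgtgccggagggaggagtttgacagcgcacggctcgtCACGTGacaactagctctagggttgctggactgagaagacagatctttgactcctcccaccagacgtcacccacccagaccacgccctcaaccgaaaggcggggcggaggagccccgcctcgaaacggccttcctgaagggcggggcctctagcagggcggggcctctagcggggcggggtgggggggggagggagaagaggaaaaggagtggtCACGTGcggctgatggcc
The motifs searched, on both strands, were TGTGGT and TGCGGT (core letters bound by Runx proteins), CACGTG (the E-box bound by Myc with Max) and GAAANNGAAA (the core of interferon-stimulated response elements). None of them was in the Vps26b window, whereas the Vps26a window held 2 matches to CACGTG and 1 to GAAANNGAAA. Over all 32851 windows, 16.8% held TGTGGT, 6.45% TGCGGT, 7.15% CACGTG and 3.44% GAAANNGAAA. Among the other members, TGTGGT occurred in Snx3, TGCGGT in Snx1 and CACGTG in Snx5. A match is a run of letters and not a measured binding site.

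Vps26b was the member that rose in 3s cells after IFNβ. Its log2 values were 8.91, 8.68 and 8.75 in IFNβ-treated 3s cells (8.78 ± 0.12, SD, n = 3) and 7.70, 7.71 and 7.77 in vehicle-treated 3s cells (7.73 ± 0.041, SD, n = 3). The treated arrays all lay above the vehicle arrays, and the lowest of them was 0.90 above the highest vehicle array. The change was 1.05 on the log2 scale (SE 0.069, 95% interval 0.90 to 1.20), a fold change of 2.07 (1.87 to 2.30), and it ranked 11 among 30176 genes in the upward direction. In 30s cells the gene read 7.67, 7.58 and 7.71 with IFNβ (7.65 ± 0.066, SD, n = 3) and 7.88, 7.76 and 7.67 with vehicle (7.77 ± 0.10, SD, n = 3). The 30s groups overlapped, and the change of -0.12 (95% interval -0.27 to 0.031) did not pass the test (limma, adjusted p = 0.517). With vehicle, Vps26b in 3s minus 30s cells was -0.04 (95% interval -0.20 to 0.11), which did not pass (adjusted p = 0.726). The effect in 3s cells minus that in 30s cells was 1.17 (95% interval 0.957 to 1.38), given as a description.

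Vps26a stayed within a narrow band. It read 12.02, 12.11 and 12.10 in IFNβ-treated 3s cells (12.08 ± 0.048, SD, n = 3) against 12.02, 11.94 and 11.83 in vehicle-treated ones (11.93 ± 0.094, SD, n = 3), so the groups met at 12.02 and were separate only beyond the 2 decimals. The change of 0.146 (95% interval 0.035 to 0.257) had an unadjusted p of 0.0142 and an adjusted p of 0.371 in limma, so it did not pass. In 30s cells Vps26a read 12.12, 12.10 and 12.08 with IFNβ and 12.08, 12.06 and 12.03 with vehicle, a change of 0.042 (adjusted p = 0.811). The IFNβ effects on Vps26a in the lines differed by 0.105 (95% interval -0.052 to 0.261, adjusted p = 0.68).

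**Figure D1:**
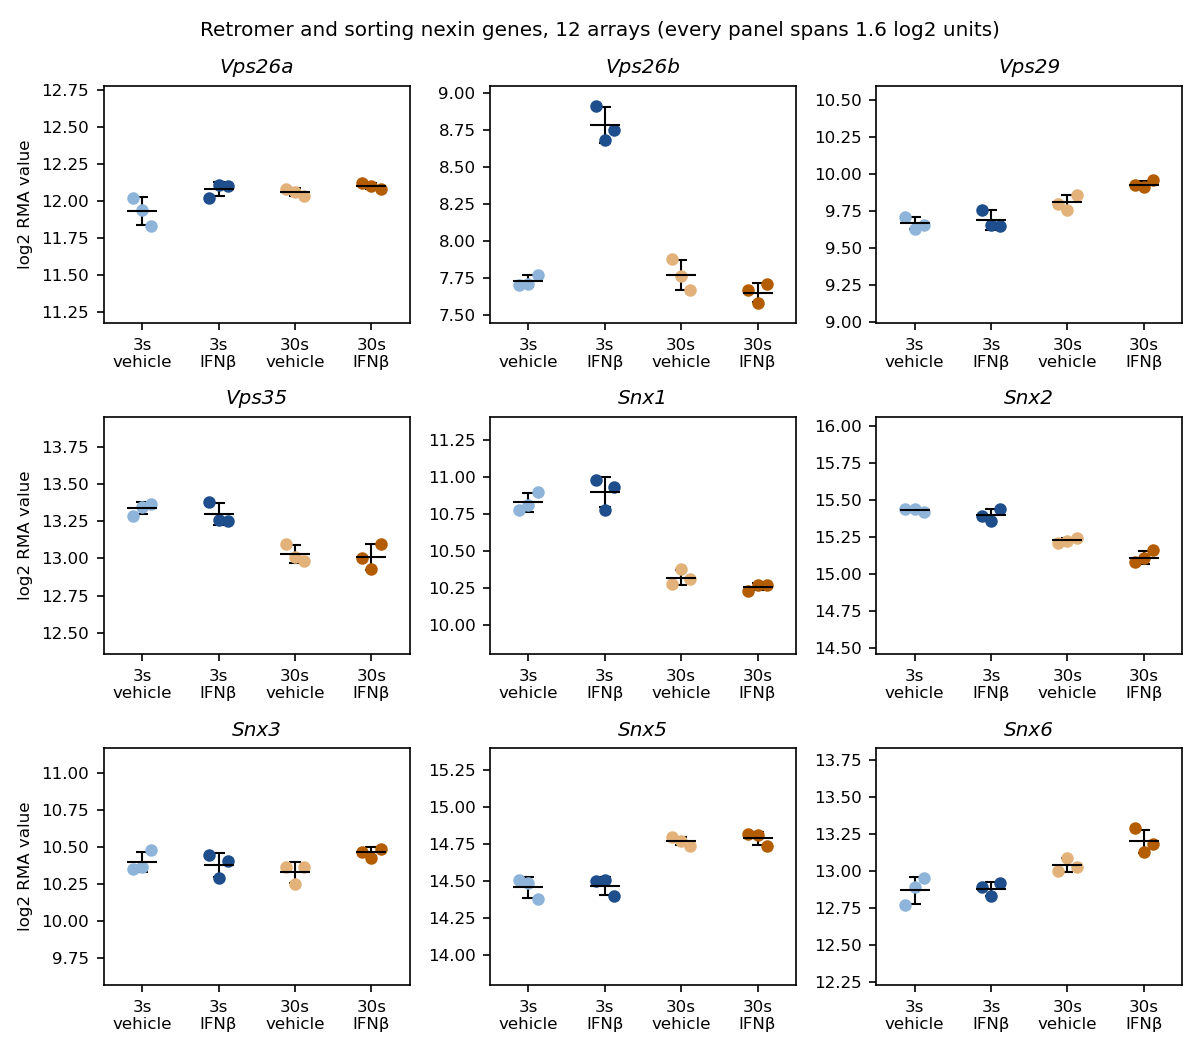
The log2 value of each member on each of the 12 arrays (points) in the 4 groups, with the group mean and SD (bars, n = 3); every panel spans the same number of log2 units. Vps26b in IFNβ-treated 3s cells (8.68 to 8.91) stands above its other 9 arrays (7.58 to 7.88), and Snx1, Snx2, Vps35 and Snx5 separate by line.

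Set against Vps26a on the same array, Vps26b moved by most of a doubling in 3s cells and little in 30s cells. The within-array difference, Vps26b minus Vps26a, was -3.11, -3.44 and -3.35 in IFNβ-treated 3s cells and -4.32, -4.24 and -4.06 in vehicle-treated 3s cells. It changed by 0.905 (SE 0.123), which contains the rise that chose the set and was not tested. In 30s cells it was -4.45, -4.52 and -4.37 with IFNβ and -4.21, -4.30 and -4.35 with vehicle, a change of -0.16 (SE 0.061) in the opposite direction. The exact permutation test over 3 against 3 arrays gave p = 0.1 (two-sided) for that change, the smallest value the design allows. Between the vehicle groups of the lines the difference moved by 0.082 (SE 0.088, exact permutation p = 0.5, two-sided). The absolute distance between the probe sets carries no meaning, since their probes differ; only its change does.

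**Figure D2:**
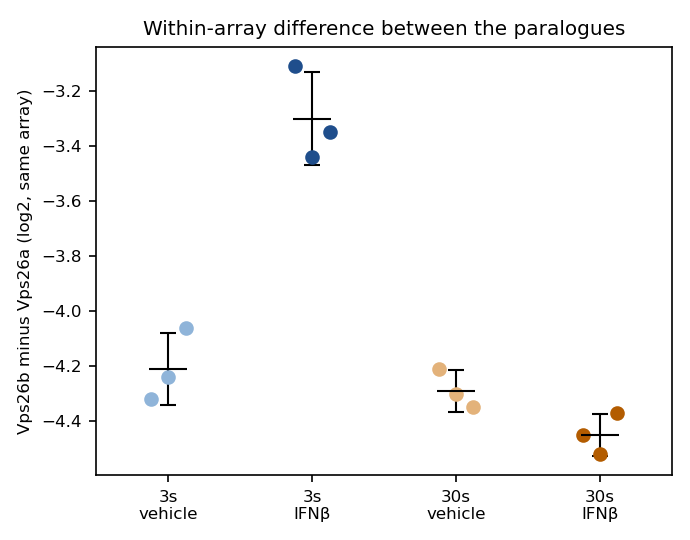
Vps26b minus Vps26a on the same array, in log2 units, for the 12 arrays (points) with the group mean and SD (bars, n = 3). The IFNβ-treated 3s arrays lie at -3.44 to -3.11 and the other 9 at -4.52 to -4.06.

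The remaining trimer subunits did not follow Vps26b. Vps35, the scaffold, read 13.38, 13.26 and 13.25 in IFNβ-treated and 13.29, 13.35 and 13.37 in vehicle-treated 3s cells, a change of -0.038 (95% interval -0.164 to 0.088). Vps29 read 9.76, 9.66 and 9.65 against 9.71, 9.63 and 9.66, a change of 0.021 (95% interval -0.079 to 0.122). In both genes the treated and vehicle arrays of 3s cells overlapped.

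The sorting nexins of the SNX-BAR dimers were as flat in 3s cells. Snx1 changed by 0.067 (95% interval -0.058 to 0.191), its partner gene Snx2 by -0.033 (-0.118 to 0.052), Snx5 by 0.014 (-0.093 to 0.122) and Snx6 by 0.009 (-0.119 to 0.136). Snx3, the retromer recruiter with no BAR domain, changed by -0.017 (-0.140 to 0.105). The intervals of these 5 sorting nexins and of Vps35 and Vps29 end at or below 0.191. That of Vps26b starts at 0.90, but its rise chose the set, so the gap is a description and not a test.

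Counted over the set, 1 of 9 members passed in 3s cells (Vps26b, upward), where 1.02% of all genes passed, 175 upward and 132 downward, and nothing is read from that count because the contrast chose the set. The groups did not overlap in 2 members, Vps26b and Vps26a, against 13.4% of all genes. The other 8 members changed by -0.038 to 0.146, and 0 of them passed at an adjusted p under 0.05 in limma. At an unadjusted p under 0.05 there was 1 of them, Vps26a, beside 2427 of all 30176 genes. For the difference between the IFNβ effects of the lines, 1.02% of all genes passed; this contrast contains the rise that chose the set, so Vps26b is left out of its count. Of the other 8 members 0 passed in limma, and 0 had an unadjusted p under 0.05, beside 3367 of all 30176 genes. Their differences lay between -0.152 (Snx3 and Snx6) and 0.135 (Snx1). The median change of the 9 members in 3s cells was 0.014, beside -0.002 over all genes.

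In 30s cells, where IFNβ was given with no floxed Runx1, 0 of 9 members passed in limma, where 1.14% of all genes did. At an unadjusted p under 0.05 there were 4, beside 4067 of all 30176 genes. Snx6 read 13.29, 13.13 and 13.18 with IFNβ and 13.00, 13.09 and 13.03 with vehicle, a change of 0.16 (95% interval 0.033 to 0.288, adjusted p = 0.239). Snx3 changed by 0.135 (adjusted p = 0.313) and Vps29 by 0.125 (adjusted p = 0.249). Snx2 changed by -0.11 (adjusted p = 0.212), from 15.21, 15.22 and 15.24 with vehicle to 15.08, 15.11 and 15.16 with IFNβ. The groups did not overlap in 5 members (Vps29, Snx3 and Snx6 higher with IFNβ, Snx1 and Snx2 lower), against 18.7% of all genes. None of these differences was larger than 0.16, and none passed after adjustment. The median change of the members was 0.023, beside 0.007 over all genes. In the same 30s arrays the pre-B marker Igll1 was 0.92 higher with IFNβ, and its part in these changes was not tested.

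**Figure D3:**
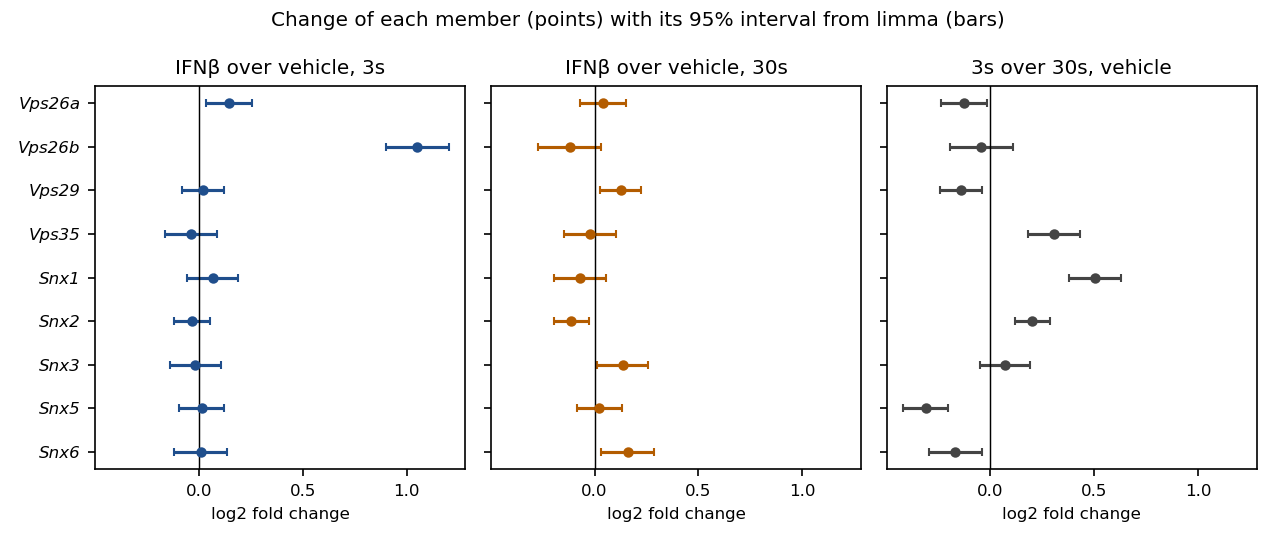
The log2 fold change of each member (points) with its 95% interval from limma (bars), for IFNβ over vehicle in 3s cells, IFNβ over vehicle in 30s cells, and vehicle-treated 3s over vehicle-treated 30s cells. Vps26b lies at 1.05 in the first panel, all members lie between -0.12 and 0.16 in the second, and Snx1 (0.504) and Snx5 (-0.31) are the outermost in the third.

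Of all genes, far more passed between the lines than after IFNβ in 3s (1.02%) or 30s cells (1.14%), and members were among them. Between vehicle-treated 3s and 30s cells 5 of 9 passed, 3 higher and 2 lower in 3s cells, where 24.8% of all genes passed; the groups did not overlap in 7 members, against 38.1% of all genes. The members are bright probe sets, and among genes with a mean above 6 the share that passed was 53.2%, with 6 of the 9 members passing in that fit. The members' count lies near that share.

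Snx1 differed most. It read 10.78, 10.81 and 10.90 in vehicle-treated 3s cells against 10.28, 10.38 and 10.31 in vehicle-treated 30s cells, a difference of 0.504 (95% interval 0.380 to 0.629, adjusted p = 4.14e-05) and a fold of 1.42. All 3s arrays lay above all 30s arrays, and so they did after IFNβ (10.98, 10.78 and 10.93 against 10.23, 10.27 and 10.27). Vps35 was higher in 3s cells as well, at 13.29, 13.35 and 13.37 against 13.10, 13.01 and 12.98, a difference of 0.306 (adjusted p = 0.00181). Snx2 was higher by 0.203 (adjusted p = 0.00202), with 15.44, 15.44 and 15.42 against 15.21, 15.22 and 15.24. Snx5 went the other way, at 14.51, 14.49 and 14.38 in 3s against 14.80, 14.77 and 14.74 in 30s cells, a difference of -0.31 (95% interval -0.42 to -0.20, adjusted p = 0.000549). Thus Snx1 and Snx2 were both higher in 3s cells, while of the partners with which they pair Snx5 was lower and Snx6 differed by -0.17 without passing (adjusted p = 0.0537). Snx6 did pass under quantile normalisation (-0.24, adjusted p = 0.00677), cyclic loess (-0.21, 0.017), trend and robust moderation (0.0393) and among genes with a mean above 6 (0.0281). It also passed, at an adjusted p of 0.0338, without replicate 3 of vehicle-treated 3s cells and, at 0.0437, without replicate 1 of IFNβ-treated 30s cells.

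The smaller differences between the lines were less settled. Vps29 was lower in 3s cells (9.71, 9.63 and 9.66 against 9.80, 9.76 and 9.86), with a difference of -0.14 and an adjusted p of 0.0441. That call was lost when any of 9 of the 12 arrays was left out (adjusted p up to 0.15), and those that kept it were replicate 1 of both 3s groups and replicate 2 of vehicle-treated 30s cells. It was also lost in a fit of the vehicle arrays alone (0.0859), under the methods' t-test (0.0853) and with median centring (-0.10, 0.159), while quantile normalisation (-0.23, 0.00228) and cyclic loess (-0.23, 0.00208) gave a larger difference. Vps26a differed by -0.13 (adjusted p = 0.0977). It passed under quantile normalisation (-0.19, adjusted p = 0.014) and cyclic loess (-0.18, 0.0229) and, at 0.0356, without replicate 1 of vehicle-treated 3s cells. Snx3, at 10.35, 10.37 and 10.48 against 10.37, 10.25 and 10.37, differed by 0.071 (adjusted p = 0.434), and its groups met at 10.37.

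Beyond the members, 124 measured genes of endosomal sorting in 8 lists were read beside them: retromer regulators and the WASH complex, other sorting nexins, Retriever and Commander, cargo receptors, HOPS and CORVET tethers, GARP and EARP tethers, ESCRT, and endosomal phosphoinositide enzymes and Rabs. In 3s cells after IFNβ 1 rose and 2 fell (2.42%, beside 1.02% of all genes and 3.08% of genes with a mean above 6). In 30s cells 1 fell (0.806%, beside 1.14% and 5.76%). All of these were cargo receptors of retromer, a list with 13 measured genes, and 0 genes of the other 7 lists passed in 3s cells, in 30s cells or for the difference between them by limma. Of the 111 genes in those lists 7 in 3s cells, 28 in 30s cells and 19 for the difference reached p under 0.05 before adjustment. Over all 30176 genes these counts were 2427, 4067 and 3367. As a share, the lists thus lay below all genes in 3s cells and above them in 30s cells and for the difference. Genes of like brightness were not compared, and the shares were not tested. The median change of the 124 genes was 0.027 in 3s and 0.041 in 30s cells.

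Sorcs2, a sortilin-family receptor, rose in 3s cells from 7.48, 7.53 and 7.51 to 8.25, 8.12 and 8.24, a change of 0.696 (95% interval 0.582 to 0.810, adjusted p = 6.93e-05). In 30s cells it read 6.78, 6.72 and 6.71 with vehicle and 6.62, 6.64 and 6.77 with IFNβ, and the effects in the lines differed by 0.758 (adjusted p = 0.00113). Like Vps26b, it was separated from its vehicle arrays in 3s cells and overlapped them in 30s cells. Unlike Vps26b, Sorcs2 was also higher in vehicle-treated 3s than 30s cells, by 0.768 (limma, adjusted p = 7.31e-07). Sorl1, the sortilin-related receptor known for sorting amyloid precursor protein, fell in 3s cells from 6.37, 6.39 and 6.47 to 6.00, 5.96 and 6.06, a change of -0.41 (adjusted p = 0.00842). Wls, which encodes the Wnt carrier Wntless, fell from 6.06, 6.36 and 6.58 to 5.49, 5.85 and 5.53, a change of -0.71 (adjusted p = 0.0246). The Wls call was lost without replicate 1 or 3 of IFNβ-treated 3s cells or without replicate 2 or 3 of vehicle-treated 3s cells (adjusted p 0.0848 to 0.111). For Sorl1 and Wls the difference between the effects in the lines did not pass (-0.23, adjusted p = 0.338, and -0.81, adjusted p = 0.0766). In a fit of the 3s arrays alone Wls did not pass (adjusted p = 0.153), and under the methods' t-test neither Sorcs2 (0.0973), Sorl1 (0.173) nor Wls (0.524) did after adjustment.

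Igf2r, the cation-independent mannose 6-phosphate receptor that carries lysosomal enzymes, behaved differently. It fell in 30s cells, from 8.35, 8.23 and 8.33 to 7.46, 7.62 and 7.73, a change of -0.71 (adjusted p = 0.00811), while in 3s cells it read 9.46, 9.58 and 9.69 with vehicle and 9.56, 9.70 and 9.94 with IFNβ. The effects differed by 0.86 (adjusted p = 0.0141). In a fit of the 30s arrays alone the adjusted p of the fall was 0.0505, and under the methods' t-test that of the fall was 0.187 and that of the difference between the effects 0.0634. Igf2r was also higher in vehicle-treated 3s than 30s cells, by 1.27 (adjusted p = 2.17e-06).

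**Figure D4:**
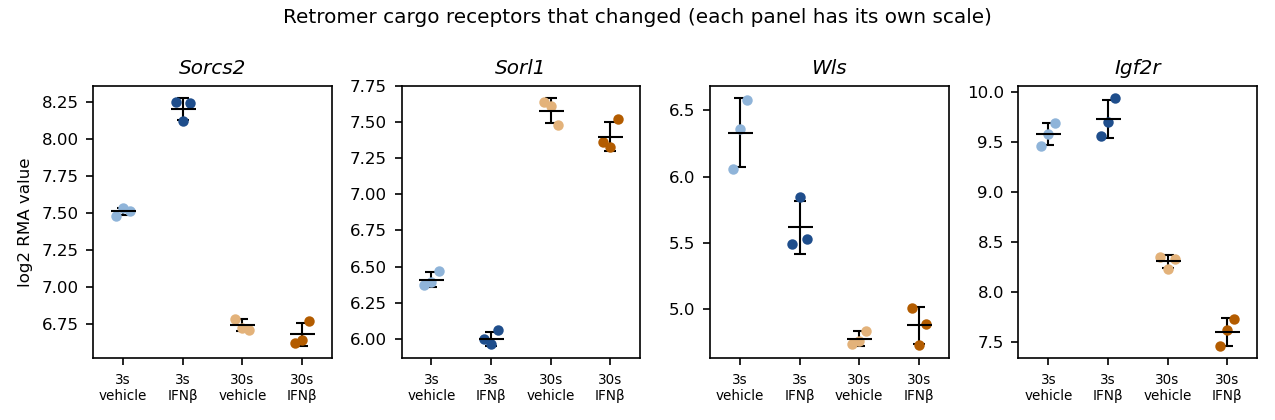
The log2 value of the 4 retromer cargo receptor genes that passed in 3s or 30s cells on each of the 12 arrays (points) in the 4 groups, with the group mean and SD (bars, n = 3); each panel has its own scale. Sorcs2 is highest in IFNβ-treated 3s cells (8.12 to 8.25), Sorl1 and Wls are lower in treated than vehicle-treated 3s cells, and Igf2r is lowest in IFNβ-treated 30s cells (7.46 to 7.73).

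Between the vehicle-treated lines 53 of the 124 were higher and 22 lower in 3s cells (60.5%, beside 24.8% of all genes and 53.2% of genes with a mean above 6). Snx10, a sorting nexin known from osteoclasts, was lower in 3s cells, with a difference of -1.59, at 6.86 to 6.90 against 8.37 to 8.54 (adjusted p = 1.07e-08). Chmp2b, an ESCRT-III subunit, was lower too, with a difference of -1.51, at 9.93 to 10.11 against 11.39 to 11.74 (adjusted p = 9.28e-08). Snx9, a BAR sorting nexin of endocytosis, was higher by 0.801 (adjusted p = 1.32e-05). Pikfyve, the kinase that makes phosphatidylinositol 3,5-bisphosphate, was higher by 0.608 (adjusted p = 6.12e-06), and Rab11a, of recycling endosomes, by 0.541 (adjusted p = 6.29e-06). By list, 10 ESCRT genes were higher and 1 lower of 20, 12 phosphoinositide and Rab genes higher and 2 lower of 22, 8 other sorting nexins higher and 6 lower of 23, and 7 retromer regulators and WASH genes higher and 6 lower of 17. Of the cargo receptors 5 were higher and 1 lower of 13, of Retriever and Commander 6 and 3 of 15, of HOPS and CORVET 4 and 2 of 10, and of GARP and EARP 1 and 1 of 4. Over all genes 4298 were higher and 3192 lower, and the lists were not tested against each other or against all genes.

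The genes beside Vps26b were read because its promoter window is shared. Ncapd3, whose start faces that of Vps26b, read 12.83, 12.74 and 12.76 in IFNβ-treated and 12.51, 12.51 and 12.54 in vehicle-treated 3s cells, a rise of 0.26 (95% interval 0.173 to 0.348, adjusted p = 0.00841). In 30s cells it changed by -0.027 (adjusted p = 0.855), and the effects in the lines differed by 0.287 (adjusted p = 0.0393). The call in 3s cells held without any single array (adjusted p up to 0.0448) but not in a fit of the 3s arrays alone (0.0872) or under the methods' t-test (0.186), whereas the call for the difference was lost without any one of the 12 arrays (adjusted p 0.0523 to 0.0998). On the other side, Thyn1, whose RefSeq span overlaps that of Vps26b on the opposite strand, read 13.12, 12.88 and 13.15 against 12.76, 12.72 and 12.82, a change of 0.286 (adjusted p = 0.107). Acad8, an acyl-CoA dehydrogenase gene next to Thyn1, changed by 0.366 (8.61, 8.60 and 8.51 against 8.32, 8.15 and 8.15; adjusted p = 0.158), and Jam3, a junctional adhesion molecule gene beyond Ncapd3, by 0.175 (adjusted p = 0.712). In Ncapd3, Thyn1 and Acad8 the treated arrays of 3s cells all lay above the vehicle arrays, and 13.4% of all genes had groups that did not overlap. With vehicle, these genes were already higher in 3s than 30s cells, unlike Vps26b. The differences were 0.226 (limma, adjusted p = 0.00122), 0.44 (0.000532) and 0.657 (0.000342), where 24.8% of all genes passed. Of the next gene on each side, Glb1l3 changed by -0.025 and Igsf9b by 0.011, and both are dim, with means of 4.06 and 4.97. No source used here gives whether probes for Vps26b and Thyn1 fall in the overlap.

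The wider neighbourhood was chosen after these values were seen and not tested as a list. Of the 10 measured named genes on each side of Vps26b (20 in all, of which 8 had a mean above 6), Ncapd3 alone passed in 3s cells and none passed in 30s cells, and the median change was -0.008 in 3s and 0.019 in 30s cells. Around Vps26a, Srgn, which encodes the proteoglycan serglycin, fell in 3s cells from 9.89, 9.97 and 9.93 to 9.58, 9.47 and 9.50, a change of -0.41 (adjusted p = 0.000691), and the other 19 of 20 genes did not pass. The effects on Srgn in the lines differed by -0.50 (adjusted p = 0.00371); under the methods' t-test the fall in 3s cells did not pass (adjusted p = 0.144). In 30s cells the gene that passed around Vps26a was Dna2, named after its value was seen (0.414, adjusted p = 0.0105), and the median change there was 0.032.

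**Figure D5:**
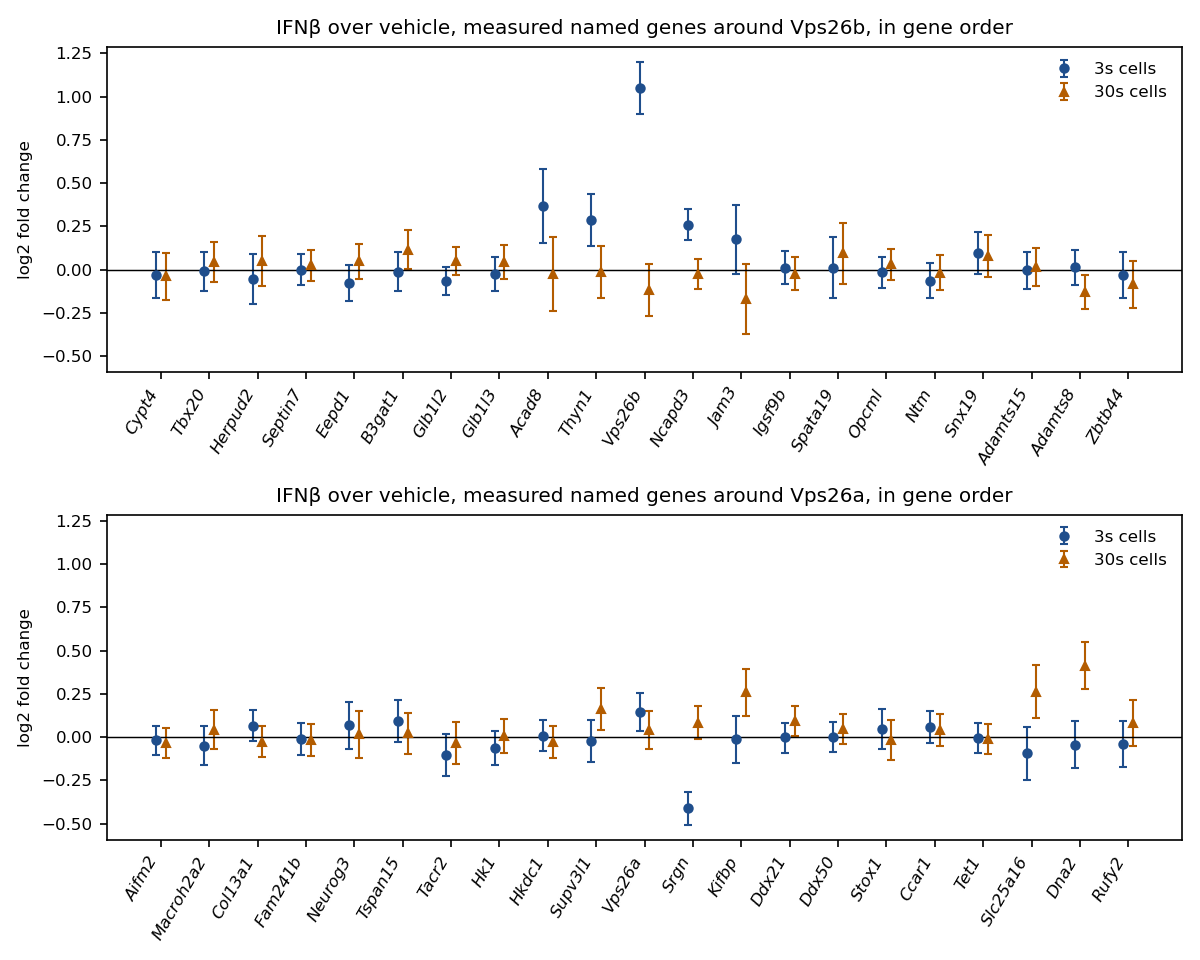
The log2 fold change for IFNβ over vehicle (points) with its 95% interval (bars) in 3s cells (circles) and 30s cells (triangles), for the 10 measured named genes on each side of Vps26b (upper panel) and Vps26a (lower panel), in gene order and not to scale. Acad8, Thyn1, Ncapd3 and Jam3, the genes nearest to Vps26b, lie at 0.175 to 0.366 in 3s cells, and Srgn beside Vps26a lies at -0.41.

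Genes whose pattern over the 12 arrays was most like that of Vps26b, among 9008 named genes with a mean above 6, were Edem3 (Pearson r = 0.99), Ublcp1 (0.988), Dmwd (0.975), Nckap1 (0.972) and Synj1 (0.94). These correlations are descriptions over arrays that fall into 4 groups, and they follow mainly the separation of IFNβ-treated 3s cells from the rest. Ublcp1, a phosphatase of the proteasome, read 10.28 to 10.43 in IFNβ-treated 3s cells and 9.52 to 9.62, 9.30 to 9.39 and 9.46 to 9.63 in vehicle-treated 3s, IFNβ-treated 30s and vehicle-treated 30s cells. Nckap1, a subunit of the WAVE actin regulator, had a far larger change in 3s cells, of 3.99, from 5.63 to 5.89 with vehicle to 9.66 to 9.80 with IFNβ. Synj1, the phosphoinositide phosphatase synaptojanin, changed by 0.405. The most opposite patterns were those of Cdkn1a (r = -0.96), Bcl11a (-0.95) and Rap1b (-0.94). Cdkn1a, the p21 cell cycle inhibitor, read 5.58 to 5.95 in IFNβ-treated and 6.47 to 6.65 in vehicle-treated 3s cells. Within the set, the correlation of the other members with Vps26b ran from -0.54 (Snx5) to 0.65 (Snx1), and Vps26a had 0.20.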

How the data were processed

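RNA of 12 cultures was hybridised to Affymetrix Mouse Transcriptome Array 1.0 arrays, 1 per culture. The authors deposited log2 values from RMA (background correction, quantile normalisation, probe set summary); the submitters' processing notes name Affymetrix Expression Console 1.4. The genome build of the array annotation was not given in the sources used here. Of 72688 probe sets, 30638 carried 1 symbol, 2176 several, 33142 none and 6732 were controls; the brightest probe set per symbol gave 30176 genes. Groups were compared with limma 3.58.1 in R 4.3.3, with the 4 group means fitted together (residual degrees of freedom 8, prior 3.15), two-sided, and Benjamini-Hochberg adjustment over all genes; a gene passed at an adjusted p under 0.05. No array was a copy of another. The fit was tested on simulated data.

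The members and lists were chosen with earlier results of these data known. Named genes are the members, Runx1, 3 neighbours on each side of Vps26b and Vps26a, the genes most and least like Vps26b, and up to 3 passing genes per list and comparison; Pax5, Cd79b, Pecam1, Igll1 and Dna2 fall outside that rule. Alternatives were the arrays in the fit, the replicate block, moderation, the methods' t-test, 3 renormalisations, a filter on dim genes, the handling of several probe sets and leaving out each array. Promoter windows are from RefSeq, GRCm38.p6.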

Additional observations from a re-analysis of the deposited data

Results flagged for a closer look

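The effect of IFNβ on Vps26b differed between the lines: it was 1.05 on the log2 scale in 3s cells and -0.12 in 30s cells, a difference of 1.17 (95% interval 0.957 to 1.38). Every IFNβ-treated 3s array lay above every vehicle-treated one, while the 30s groups overlapped. This difference contains the 3s rise by which the set was chosen, so the value is a description. What it arises from was not tested.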

How the results depend on the processing

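Vps26b changed by 0.986 to 1.10 in 3s cells over 22 alternatives and by 1.11 to 1.22 for the difference between the lines over 21. Most of these could not move the value, because they leave the means of the compared groups as they are. Only the 3 renormalisations and leaving out an array of a compared group could. The number of members that passed in 3s cells was 1 (Vps26b, whose rise chose the set, so that nothing is read from it) under the alternatives other than the methods' t-test, which gave 0 after adjustment (0.0265% of all genes passed). In 30s cells 0 passed in any alternative. Between the vehicle groups 4 to 7 passed. Over all genes the share that passed ran from 0.0265% to 3.08% in 3s cells, from 0% to 5.76% in 30s cells, from 0.59% to 3.58% for the difference and from 16.4% to 53.2% between the vehicle groups; the highest of each came from testing only genes with a mean above 6.

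Replicate numbers did not pair the samples: deviations of same-numbered arrays correlated at -0.10 to 0.13, with 1 of 18 pairs above 0.1. With the replicate block the members that passed were 1, 0, 1 and 5 in 3s cells, in 30s cells, for the difference and between the vehicle groups, as without it. The shares of all genes were 0.762%, 0.802%, 0.802% and 24.1%. The 1 in 3s cells and the 1 for the difference are Vps26b, whose rise chose the set, so nothing is read from them. The changes of Vps26b minus Vps26a (0.905 in 3s cells, -0.16 in 30s cells and 0.082 between the vehicle groups) were not refitted with the block. It could not alter them, because every group holds each replicate number. Of the other named genes, Wls in 3s cells (adjusted p = 0.052) and Ncapd3 for the difference (0.0849) no longer passed with the block.

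Small changes that never passed turned direction. Quantile normalisation gave Snx6 in 3s cells -0.013, Snx5 in 30s cells -0.005, Snx5 for the difference 0.015 and Snx3 between the lines -0.012. Cyclic loess gave Snx5 and Snx6 in 3s cells -0.001 and -0.006, Snx5 in 30s cells -0.009, Vps35 and Snx5 for the difference 0.007 each, and Snx3 between the lines -0.013. Leaving out each array in turn, the 3s changes ranged from -0.016 to 0.043 for Vps29, -0.050 to 0.029 for Snx3, -0.026 to 0.049 for Snx5 and -0.042 to 0.049 for Snx6. In the same way Vps35 ranged from -0.069 to 0.018 in 30s cells and from -0.058 to 0.031 for the difference, Snx5 from -0.049 to 0.026 for the difference and Vps26b from -0.093 to 0.009 between the lines. The cause was not tested. With 3 arrays a group, the SE of a member's change was 0.039 to 0.069.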
